A study of Mus musculus with 28 samples.

Results

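Glutamate is the main excitatory transmitter of the hippocampus, and 28 genes of its receptor system were followed across genotypes in this study. They encode the 4 AMPA receptor subunits (Gria1 to Gria4), 6 NMDA receptor subunits (Grin1, Grin2a, Grin2b, Grin2c, Grin2d, Grin3a), 5 kainate receptor subunits (Grik1 to Grik5), the delta receptor Grid1, 6 metabotropic receptors (Grm2, Grm3, Grm4, Grm5, Grm7, Grm8) and 6 AMPA receptor auxiliary subunits (Cacng2, Cacng3, Cacng4, Cacng5, Cacng7, Cacng8). The genes were listed by symbol, with no measured value in the rule. All 28 were found among the 55487 gene IDs of each count table, and all 28 passed the filter on low counts in every fit.

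Polyadenylated RNA was sequenced from the hippocampus of mice 9 months old, killed after behavioural testing. The Ripk1 cohort held Ripk1 D138N 5xFAD, Ripk1 D138N, 5xFAD and WT mice. D138N is a homozygous point mutation in the kinase domain of RIPK1 that leaves it without kinase activity. The Zbp1 cohort held Zbp1 knockout (KO) 5xFAD, Zbp1 KO, 5xFAD and WT mice, where ZBP1 is a sensor of Z-form nucleic acids upstream of RIPK1 and RIPK3. Each cohort had WT animals of its own line. The 5xFAD mouse is a model of Alzheimer's disease that carries mutant human transgenes driven in neurons by the Thy1 promoter, so amyloid builds up beside neurons that themselves express the transgenes. Each genotype had 3 libraries. A further 4 libraries, with 1 library each, were an immunoprecipitate of RNA bound to ZBP1 (IP) and its input, from 5xFAD and from WT. Whether the 3 libraries of each genotype are separate animals is not stated in the labels, and p-values measure the spread between libraries.

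AMPA receptors carry the fast excitatory current, and NMDA receptors admit calcium when the postsynaptic membrane is already depolarised, which makes them triggers of synaptic plasticity. Kainate receptors act on both sides of the synapse, and metabotropic receptors signal through G proteins. The Cacng proteins described here bind AMPA receptors, and several of them carry the receptors to the surface and slow their closing. Amyloid is known to disturb glutamate receptor trafficking and plasticity in the hippocampus, and messenger RNA levels do not report receptor protein or surface number.

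Library size ran from 16.6 M to 44.8 M counts in the Ripk1 cohort, and from 8.4 M (WT 1) to 34.6 M in the Zbp1 cohort, where the next lowest library had 27.1 M (M, counts in units of 1000000). The 28 genes together took 0.519 to 0.667% of counts in the Ripk1 cohort and 0.448 to 0.704% in the Zbp1 cohort, and no gene had fewer than 61 counts in any library. Thy1 reads, which the transgenes can add to, ran from 1462 to 2740 counts per 1000000 (CPM) in 5xFAD carriers, against 513 to 662 CPM in non-carriers. Zbp1 itself had 9 to 11 counts in KO 5xFAD and 0 to 11 in KO, against 52 to 125 in 5xFAD and 0 to 12 in WT of its cohort, so the counts separate knockout from intact Zbp1 on the 5xFAD background and not without 5xFAD. In the Zbp1 cohort, 5xFAD 2 and WT 2 stood apart with 791 and 994 CPM of the nuclear RNA Malat1, where every other library of the 24 had at least 1938 CPM. In the Ripk1 cohort 5xFAD 1, the shallowest library there, had 521 CPM of the activity-induced gene Fos, and no other library passed 25.3 CPM. CPM were scaled by TMM, edgeR's normalisation for library composition, and are not divided by transcript length, so levels are compared between libraries of 1 gene and never between genes. In bulk tissue, fewer cells of a type and less RNA per cell cannot be told apart.

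In the Ripk1 cohort 14 of the 28 genes were lower in 5xFAD than in WT and none was higher. They were 3 AMPA, 2 NMDA and 2 kainate subunits, Grid1, 5 metabotropic receptors and Cacng3. A gene is called lower or higher where its adjusted p lies under 0.05 (edgeR quasi-likelihood test, Benjamini-Hochberg over all genes tested), and by the same rule 8.02% of the 21376 genes tested were lower and 8.11% higher. The median log2 fold change of the 28 genes was -0.32, beside 0.02 for all genes tested, and 24 of the 28 estimates lay below 0, beside 47.8% of all genes. Every 5xFAD library lay below every WT library in 18 of the 28 genes, beside 17.1% of all genes, and above in Cacng4 alone, beside 17.7%. In the Zbp1 cohort 2 of 28 were lower (Grm8 and Cacng3) and none was higher, beside 0.127% of 21274 genes lower and 3% higher. The median there was -0.19, beside 0 for all genes, and 26 of 28 estimates lay below 0, beside 50.7% of all genes. In 10 genes that were lower the libraries did not overlap, beside 5.4% of all genes, and in Cacng4, which was higher, beside 8.28%. The 5xFAD effect averaged over the WT, D138N and KO backgrounds of both cohorts (4 carrier against non-carrier pairs, 24 libraries in 1 fit) called 17 genes lower and none higher, beside 7.53% of 22565 genes lower and 8.73% higher. These were all 4 AMPA subunits, Grin1, Grin2a, Grik1, Grid1, all 6 metabotropic receptors, Cacng2, Cacng3 and Cacng7. The averaged median was -0.21, beside 0 for all genes, and 26 of 28 estimates lay below 0, beside 49.6% of all genes.

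Fewer of the receptor and auxiliary genes were called in the Ripk1 cohort when any single library was left out. Without 5xFAD 2 the number lower fell to 4, without WT 1 to 5, and without 5xFAD 1 or without WT 2 to 7. It was 12 without WT 3 and 13 without 5xFAD 3. Over all genes the number lower fell as well, from 1715 to 702, 735, 1150, 1066, 1350 and 1630, in the same order. The median log2 fold change of the receptor and auxiliary genes ran from -0.35 to -0.29 in these fits, against -0.32 in the main fit. Gria4, Grik1, Grik3 and Grm4 each lost the call without 5xFAD 1, 5xFAD 2, WT 1 or WT 2. Grm8 lost it without any library but WT 3, Gria1 without any but 5xFAD 3, Cacng3 without any of the 6, Grm7 without 5xFAD 2, 5xFAD 3 or WT 1, Grin2a without 5xFAD 2 or WT 1, and Gria3 without 5xFAD 2. Grin2b, Grm3, Grm5 and Grid1 were called whichever of the 6 libraries was left out. In the Zbp1 cohort the number was 4 without the low-Malat1 pair 5xFAD 2 and WT 2, with Gria3 and Grin1 added (-0.35 and -0.33). Over all genes the number lower rose there from 27 to 257. In the average over 4 backgrounds the number called ran from 13 to 18 as each of the 24 libraries was left out. Over all genes the number lower ran from 1221 to 1998 in those fits. Without the low-Malat1 pair the average called 17, of which 15 were called in the main fit, beside 2219 of all genes lower. Scaling each library to 8 neuron markers in place of TMM raised the median of all genes by 0.19 in the average, and 3 genes were then called lower (Grm8, Grm4 and Cacng3) and 4 higher (Cacng4, Grik4, Grik5 and Grin2c). In 5xFAD over WT the median of all genes with this scaling was 0.24 in each cohort, beside 0.02 (Ripk1) and 0 (Zbp1) with TMM. The scaling used the summed counts of the 8 markers, so abundant markers weighed most. With TMM the median of the 8 was -0.10 in the Ripk1 cohort (6 below 0, 2 above). In the Zbp1 cohort it was -0.22 (8 below 0). Neuron-marker scaling left Grin2b, Grik3, Grm3, Grm4 and Grm5 lower and Cacng4, Grik4 and Grik5 higher in the Ripk1 cohort, and Grm8 lower in the Zbp1 cohort. Over all genes, 440 were then lower and 4872 higher in the Ripk1 cohort, and 4 lower and 1434 higher in the Zbp1 cohort.

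**Figure D1:**
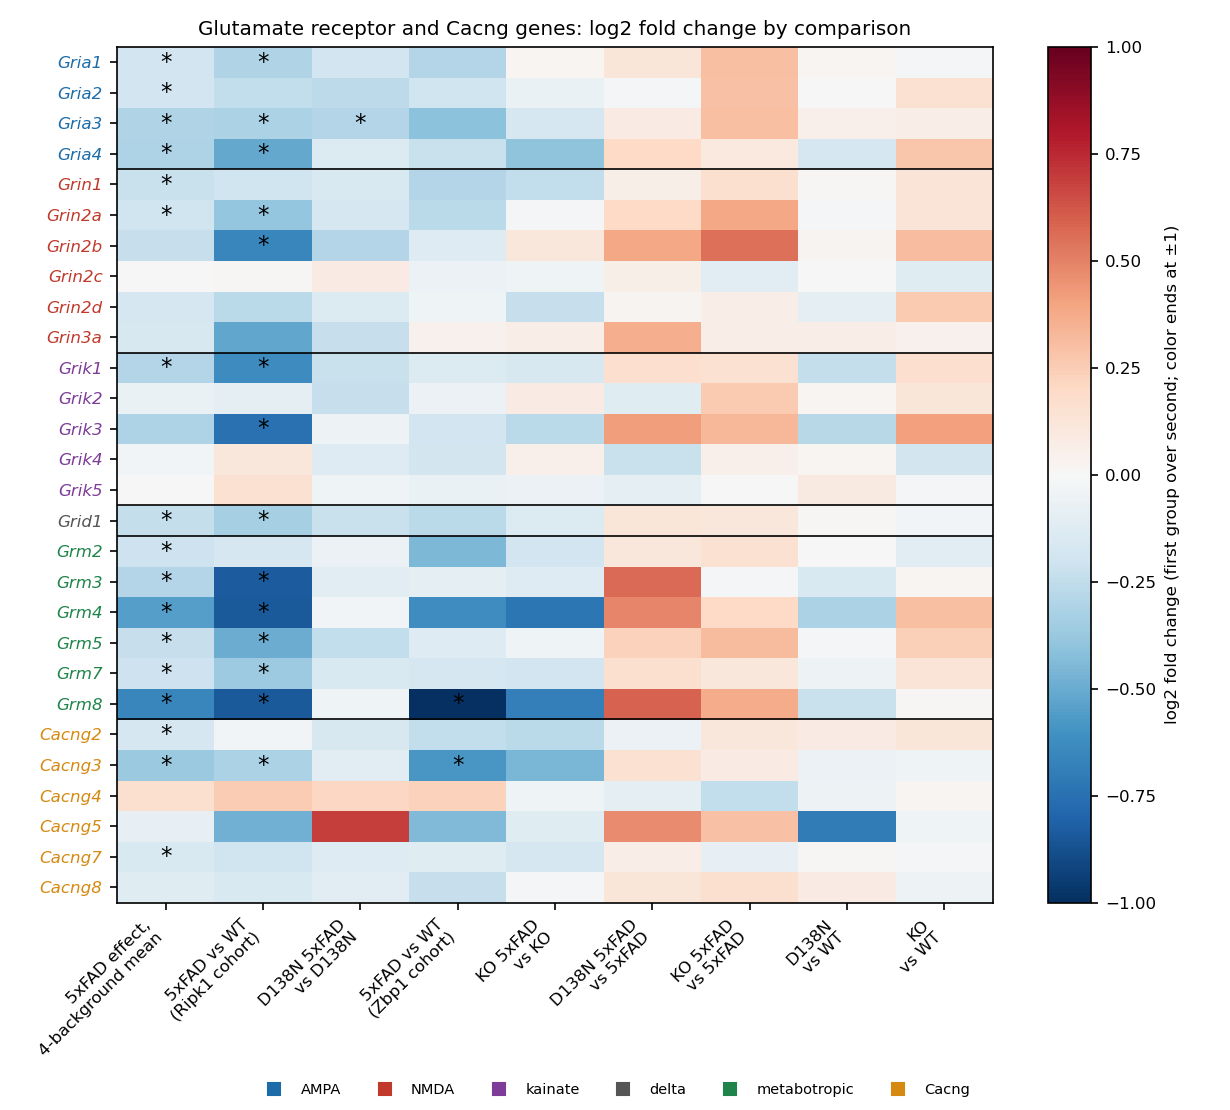
Log2 fold change of each of the 28 genes (rows, grouped by receptor family) in 9 comparisons (columns, first group over second), with color from -1 to 1 and an asterisk where edgeR called the gene. The 5xFAD columns at the left are mostly blue with 17, 14, 1, 2 and 0 asterisks, and the columns comparing mutants with their own 5xFAD or WT carry none.

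AMPA subunit genes were lower in 5xFAD carriers, all 4 of them in the average over backgrounds, with log2 fold changes between -0.31 and -0.19 (between -0.12 and 0 when libraries were scaled to neuron markers). GluA1 and GluA2, the products of Gria1 and Gria2, form the main AMPA receptor of hippocampal pyramidal cells. Gria1 was at 960, 1040 and 1140 CPM in 5xFAD, against 1270, 1260 and 1300 CPM in WT of the Ripk1 cohort. It was at 1040, 941 and 1130 CPM in 5xFAD, against 1410, 1180 and 1220 CPM in WT of the Zbp1 cohort. Every 5xFAD library thus lay below every WT library of its cohort. The log2 fold change was -0.30 ± 0.09 (SE; edgeR, adjusted p = 0.0383) in the Ripk1 cohort, a call kept by 1 of 6 leave-one-out fits. It was -0.29 ± 0.10 in the Zbp1 cohort, where the call was missed (edgeR, adjusted p = 0.178). Gria2, whose edited subunit keeps calcium out of the channel, was at 946, 999 and 1160 CPM in 5xFAD, against 1280, 1230 and 1170 CPM in WT of the Ripk1 cohort. Its estimates were -0.25 ± 0.09 there and -0.20 ± 0.11 in the Zbp1 cohort, neither called (edgeR, adjusted p = 0.0688 and 0.534), and -0.19 ± 0.05 in the average (adjusted p = 0.00782).

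Gria3 showed the AMPA family's most repeated difference, with carriers below non-carriers and no overlap in 3 of the 4 pairs. In the Ripk1 cohort it was at 228, 209 and 240 CPM in 5xFAD, against 282, 273 and 291 CPM in WT. On the D138N background it was at 256, 234 and 224 CPM in D138N 5xFAD, against 291, 272 and 310 CPM in D138N. Its Zbp1-cohort values were 215, 158 and 210 CPM in 5xFAD, against 272, 225 and 277 CPM in WT. On the KO background the groups overlapped narrowly, with 252, 229 and 239 CPM in KO 5xFAD, against 286, 251 and 274 CPM in KO. The averaged log2 fold change was -0.30 ± 0.05 (edgeR, adjusted p = 1.37e-04). Gria3 was the single gene of the 28 called in D138N 5xFAD over D138N (-0.29 ± 0.07, edgeR adjusted p = 0.0473), a call lost in 4 of 6 leave-one-out fits.

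Gria4, the AMPA subunit prominent in interneurons, was at 63.2, 56.1 and 67.1 CPM in 5xFAD, against 99.4, 90.5 and 76.2 CPM in WT of the Ripk1 cohort. All 5xFAD libraries there lay below all WT libraries (-0.51 ± 0.15, edgeR adjusted p = 0.0321). Groups of the Zbp1 cohort overlapped, with 61.2, 50.5 and 58.9 CPM in 5xFAD, against 60.7, 65.5 and 72 CPM in WT. The KO background showed no overlap, with 72.4, 54.3 and 56.7 CPM in KO 5xFAD, against 82.9, 78.4 and 80.3 CPM in KO, though the estimate of -0.40 ± 0.12 was not called (edgeR, adjusted p = 0.202). The averaged value was -0.31 ± 0.07 (edgeR, adjusted p = 0.0024). The summed CPM of 8 interneuron markers ran from 440 to 589 in 5xFAD, against 600 to 908 in WT of the Ripk1 cohort. It ran from 491 to 584 in KO 5xFAD, against 673 to 724 in KO. The sum also lay lower without overlap where Gria4 overlapped. It was 470 to 538 in 5xFAD, against 592 to 698 in WT of the Zbp1 cohort. With D138N it was 540 to 614 in D138N 5xFAD, against 621 to 675 in D138N, where Gria4 ran from 52.5 to 83.4 CPM, against 74.2 to 85.4 CPM. The part of these markers in the result was not tested.

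**Figure D2:**
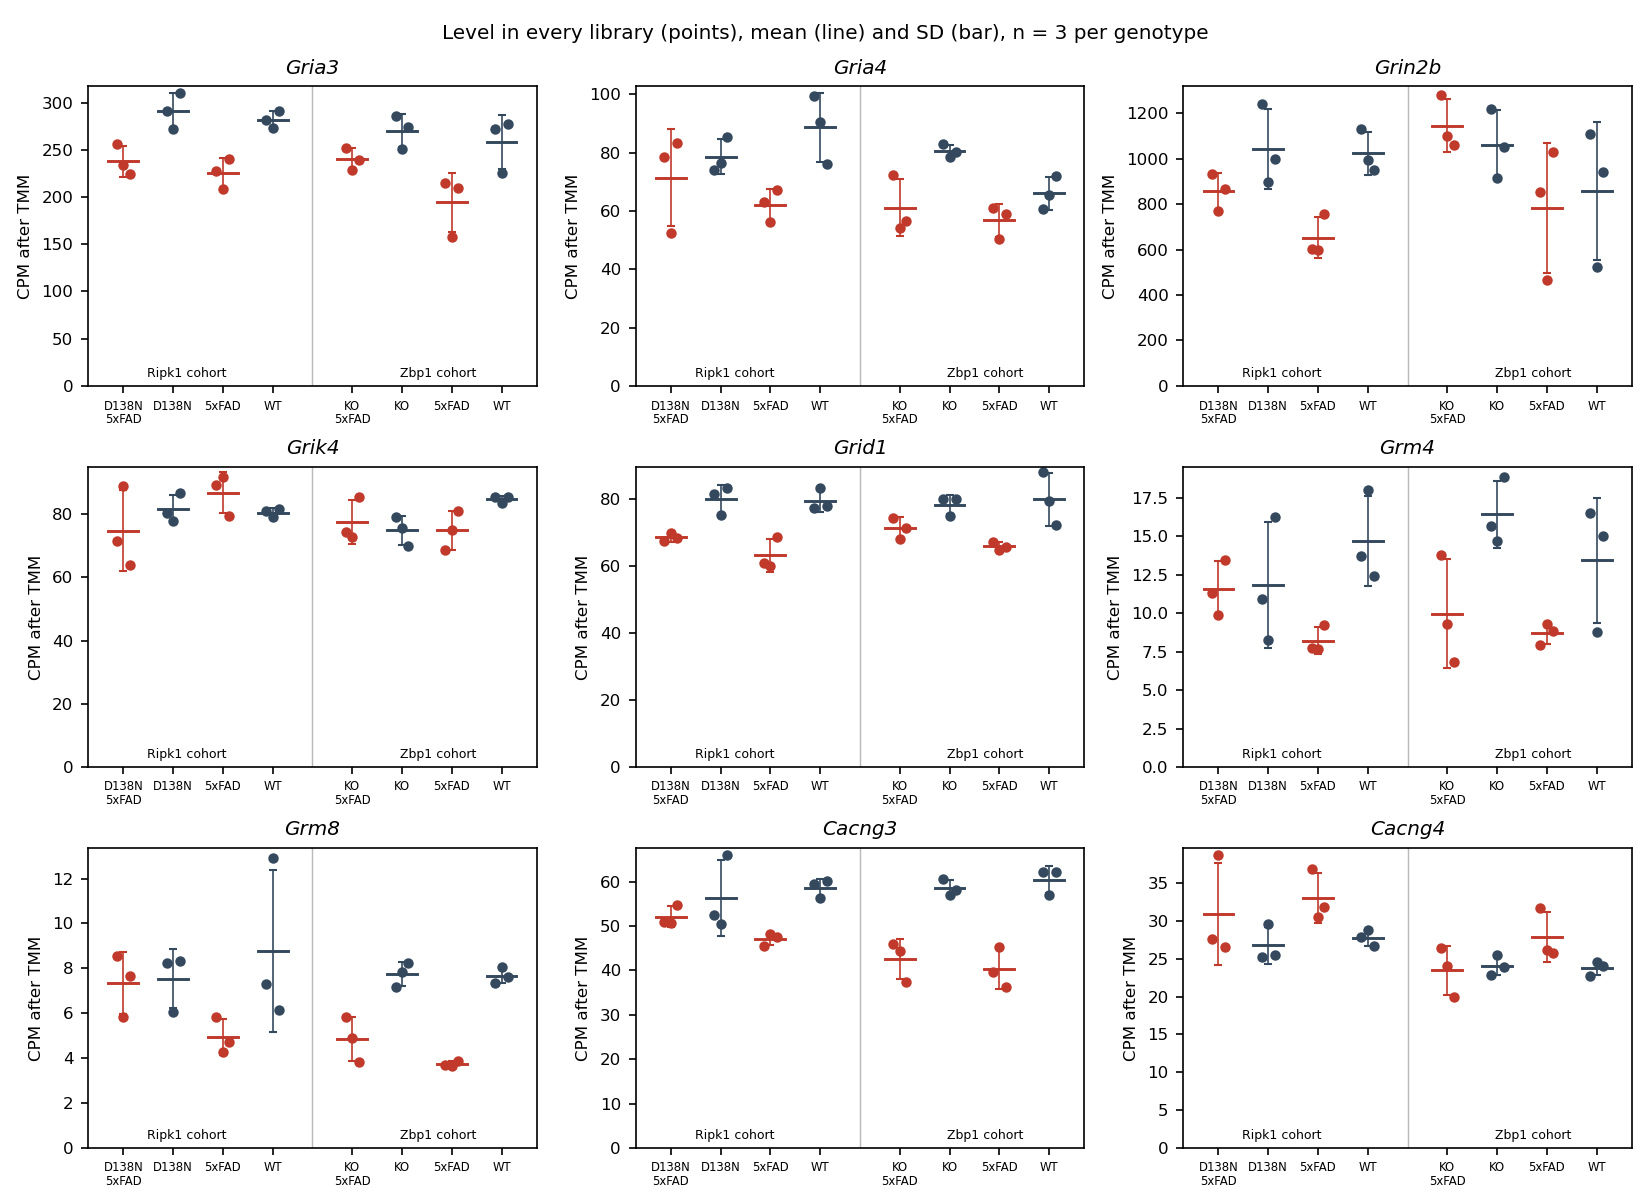
CPM after TMM of 9 genes in every library (points; carriers of 5xFAD in red, non-carriers in dark blue), with the mean and SD of 3 libraries per genotype; the Ripk1 cohort is at the left of each panel and every axis starts at 0. Grid1, Gria3, Grm8 and Cacng3 sit lower in carriers in at least 3 of 4 pairs without overlap, while Cacng4 runs the other way in 5xFAD over WT.

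Of the 6 NMDA receptor genes, Grin2a and Grin2b were called lower in the Ripk1 cohort and none in the Zbp1 cohort. Grin1, which encodes the obligatory subunit of every NMDA receptor, was lower in the average (-0.22 ± 0.05, edgeR adjusted p = 0.001) without a call in either cohort alone. It was at 322, 312 and 303 CPM in 5xFAD, against 345, 357 and 376 CPM in WT of the Ripk1 cohort, with no overlap. Libraries of the Zbp1 cohort had it at 311, 272 and 301 CPM in 5xFAD, against 373, 305 and 402 CPM in WT, where WT 2 reached into the 5xFAD range. Grin2a, the subunit that dominates mature synapses, was at 420, 414 and 474 CPM in 5xFAD, against 594, 551 and 568 CPM in WT of the Ripk1 cohort (-0.39 ± 0.09, edgeR adjusted p = 0.011). In the other cohort it was at 442, 329 and 544 CPM in 5xFAD, against 631, 424 and 527 CPM in WT, and the groups overlapped. The averaged call of Grin2a (-0.20 ± 0.07, edgeR adjusted p = 0.0485) was lost in 17 of 24 leave-one-out fits.

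Grin2b, which encodes the subunit with slow kinetics that prevails in early life, had the largest NMDA difference of the Ripk1 cohort. It was at 604, 598 and 757 CPM in 5xFAD, against 1130, 994 and 950 CPM in WT, a log2 fold change of -0.65 ± 0.13 (edgeR, adjusted p = 0.00462) that stayed called in all 6 leave-one-out fits and with neuron-marker scaling (-0.43, adjusted p = 0.0172). The Zbp1 cohort had it at 853, 468 and 1030 CPM in 5xFAD, against 1110, 522 and 940 CPM in WT. The low value in each of these groups belongs to the library with low Malat1, 5xFAD 2 and WT 2, and the estimate was -0.13 ± 0.27 (edgeR, adjusted p = 0.935). The effect did not pass the test of a difference between cohorts (Ripk1 minus Zbp1 -0.53 ± 0.32, edgeR adjusted p = 0.643). In the average Grin2b was not called (-0.23 ± 0.11, edgeR adjusted p = 0.182). Without the low-count filter edgeR called it lower there (-0.24, adjusted p = 0.00103). Without 5xFAD 2 and WT 2 of the Zbp1 cohort it was also called (-0.23, edgeR adjusted p = 0.0169). Over all genes 1689 and 2219 were lower in these fits, against 1699 in the main fit.

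The remaining NMDA genes, Grin2c, Grin2d and Grin3a, were called in no comparison of all libraries with TMM scaling and the filter on low counts. Without that filter edgeR called Grin3a lower in 5xFAD over WT of the Ripk1 cohort (-0.51, adjusted p = 0.015). Grin2c, the subunit found in astrocytes and interneurons, averaged 0 ± 0.05. Grin2d and Grin3a averaged -0.17 ± 0.07 and -0.16 ± 0.10. Grin3a, whose subunit lowers calcium flow, ranged from 31.9 to 51.9 CPM in 5xFAD, against 42.9 to 69.2 CPM in WT of the Ripk1 cohort. As a description of the subunit balance, reads of Grin2a per read of Grin2b were 0.672 ± 0.0396 in 5xFAD, against 0.56 ± 0.0352 in WT of the Ripk1 cohort (SD, n = 3 each), with no overlap. For the Zbp1 cohort the ratio was 0.583 ± 0.104 in 5xFAD and 0.648 ± 0.143 in WT, and the groups overlapped. Reads of Gria1 per read of Gria2 overlapped between 5xFAD and WT in both cohorts, at 1.01 ± 0.0284 in 5xFAD against 1.05 ± 0.0642 in WT (Ripk1), and 1.03 ± 0.0681 in 5xFAD against 1.10 ± 0.0793 in WT (Zbp1).

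Kainate subunits separated by gene. Grik1 and Grik3 were lower in 5xFAD of the Ripk1 cohort, while Grik2, Grik4 and Grik5 were called in no comparison of all libraries with TMM scaling. Grik1, a subunit of interneuron kainate receptors, was at 8.55, 10.2 and 14.6 CPM in 5xFAD, against 15.8, 19.8 and 16.3 CPM in WT (-0.63 ± 0.18, edgeR adjusted p = 0.0264). Grik3 was at 40.9, 36.2 and 51.9 CPM in 5xFAD, against 76.1, 84.2 and 56.9 CPM in WT (-0.75 ± 0.19, edgeR adjusted p = 0.0157). Neither set of libraries overlapped, yet both calls were lost in 4 of 6 leave-one-out fits. Zbp1-cohort libraries had Grik1 at 12, 10.7 and 10.9 CPM in 5xFAD, against 8.92, 12.5 and 15.2 CPM in WT. Grik3 was at 59.8, 30.6 and 53.4 CPM in 5xFAD, against 71.1, 33.1 and 60.7 CPM in WT, where the low value of each group again belonged to the library with low Malat1. Both genes overlapped there (-0.14 ± 0.18 and -0.19 ± 0.26). The averaged estimate was called for Grik1 (-0.29 ± 0.09, edgeR adjusted p = 0.0313; lost in 9 of 24 leave-one-out fits) and missed for Grik3 (-0.31 ± 0.12, edgeR adjusted p = 0.0841). Grik3 was called lower in the average by DESeq2 (adjusted p = 0.0481) and by edgeR without the low-count filter (adjusted p = 1.03e-04). Without the low-Malat1 pair edgeR called it too (adjusted p = 0.0128). Over all genes 2028, 1689 and 2219 were lower in these fits, against 1699 in the main fit.

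Grik4 and Grik5, the high-affinity kainate subunits at mossy fibre synapses on CA3 cells, stood at -0.03 ± 0.05 and 0 ± 0.05 in the average. With libraries scaled to neuron markers they became 0.16 and 0.19 and were called higher (edgeR, adjusted p = 0.0175 and 0.0097), which is close to the shift of 0.19 that this scaling gave the median of all genes. Grik4 ranged from 63.9 to 89.1 CPM in D138N 5xFAD and from 79.5 to 91.9 CPM in 5xFAD. Grik2 averaged -0.07 ± 0.08.

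Grid1, whose product GluD1 links the postsynaptic side to presynaptic neurexin through cerebellin, was the single gene of the 28 with carriers below non-carriers and no overlap in all 4 pairs, beside 0.353% of 20680 genes tested in both cohorts. It was at 60.8, 60 and 68.7 CPM in 5xFAD, against 77.2, 83.3 and 77.9 CPM in WT of the Ripk1 cohort. On the D138N background it was at 67.4, 69.8 and 68.4 CPM in D138N 5xFAD, against 81.5, 75.1 and 83.4 CPM in D138N. Its Zbp1-cohort values were 67.3, 64.9 and 65.8 CPM in 5xFAD, against 88.1, 79.5 and 72.3 CPM in WT. On the KO background it was at 74.5, 68.2 and 71.4 CPM in KO 5xFAD, against 80, 75 and 80.1 CPM in KO, where the highest carrier lay just under the lowest non-carrier. The fold is small, with the averaged level in carriers at 0.848 of that in non-carriers (log2 -0.24 ± 0.04, edgeR adjusted p = 8.73e-05). Within cohorts edgeR called Grid1 in 5xFAD over WT of the Ripk1 cohort (-0.33 ± 0.07, adjusted p = 0.00777). It was not called in the Zbp1 cohort (-0.27 ± 0.09, adjusted p = 0.175), on the D138N background (-0.22 ± 0.07, adjusted p = 0.134) or on the KO background (-0.14 ± 0.09, adjusted p = 0.906). With neuron-marker scaling the averaged estimate was -0.05 and the call was lost (adjusted p = 0.38).

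All 6 metabotropic receptor genes were lower in the average over 4 backgrounds, with log2 fold changes between -0.65 and -0.21 (between -0.46 and -0.02 with neuron-marker scaling, where Grm4 and Grm8 kept their calls). Grm8, a presynaptic autoreceptor of group III, differed most. It was at 5.84, 4.26 and 4.71 CPM in 5xFAD, against 7.32, 12.9 and 6.15 CPM in WT of the Ripk1 cohort. Libraries of the Zbp1 cohort had it at 3.7, 3.66 and 3.87 CPM in 5xFAD, against 7.36, 8.05 and 7.62 CPM in WT, so that carriers had about 0.487 of the WT level. Both groups of that cohort were tight, with means of 3.74 ± 0.112 CPM in 5xFAD and 7.68 ± 0.349 CPM in WT (SD, n = 3 each). The log2 fold change was -1.04 ± 0.20 in the Zbp1 cohort (edgeR, adjusted p = 0.00687), and this call stood in all 6 leave-one-out fits and with neuron-marker scaling (-0.79, adjusted p = 0.0294). In the Ripk1 cohort it was -0.84 ± 0.26 (edgeR, adjusted p = 0.0426), and 5 of 6 leave-one-out fits lost the call.

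On the KO background Grm8 was at 5.83, 4.88 and 3.84 CPM in KO 5xFAD, against 7.19, 7.86 and 8.24 CPM in KO, with no overlap, and the estimate of -0.68 ± 0.19 was not called by edgeR (adjusted p = 0.164; DESeq2 0.0216). With D138N it was at 8.55, 5.84 and 7.66 CPM in D138N 5xFAD, against 8.24, 6.04 and 8.35 CPM in D138N, and the groups overlapped (-0.04 ± 0.25, edgeR adjusted p = 0.973). The test of the difference between backgrounds in the Ripk1 cohort gave 0.81 ± 0.36 (edgeR, unadjusted p = 0.0445, adjusted p = 0.661), so a difference of the effect with D138N was not established.

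Grm4, another group III autoreceptor, was at 7.72, 7.68 and 9.26 CPM in 5xFAD, against 13.7, 18 and 12.4 CPM in WT of the Ripk1 cohort (-0.84 ± 0.22, edgeR adjusted p = 0.0217; 4 of 6 leave-one-out fits lost the call). In the other cohort it was at 7.93, 9.31 and 8.83 CPM in 5xFAD, against 16.5, 8.81 and 15 CPM in WT. WT 2, the library with low Malat1, fell among the 5xFAD values, and the estimate of -0.62 ± 0.26 was not called (edgeR, adjusted p = 0.348). On the KO background it was at 13.8, 9.33 and 6.82 CPM in KO 5xFAD, against 15.7, 14.7 and 18.9 CPM in KO, without overlap. The averaged value was -0.55 ± 0.13 (edgeR, adjusted p = 0.00343).

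Grm7, the third presynaptic receptor of this group, was at 52.6, 44.8 and 47.1 CPM in 5xFAD, against 66.2, 58.5 and 60.3 CPM in WT of the Ripk1 cohort (-0.36 ± 0.10, edgeR adjusted p = 0.0245). The Zbp1 cohort had it at 51.5, 43.7 and 60.1 CPM in 5xFAD, against 67.6, 57.3 and 50.7 CPM in WT, and the groups overlapped. The average was -0.21 ± 0.06 (edgeR, adjusted p = 0.0113). Group III genes therefore had the same sign in both cohorts, with Grm8 alone called in each.

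Grm3, a group II receptor made by astrocytes as well as neurons, was at 32.2, 26.4 and 33.4 CPM in 5xFAD, against 67.1, 47.1 and 49.3 CPM in WT of the Ripk1 cohort. Its log2 fold change of -0.83 ± 0.18 (edgeR, adjusted p = 0.00797) stayed called in all 6 leave-one-out fits. Its Zbp1-cohort values were 37.6, 48.4 and 51.5 CPM in 5xFAD, against 44.4, 54.1 and 47.9 CPM in WT (-0.09 ± 0.17). The difference of the effect between cohorts was -0.74 ± 0.26 (Ripk1 minus Zbp1), with an unadjusted p of 0.00937 and an edgeR adjusted p of 0.416. The averaged call (-0.29 ± 0.09, edgeR adjusted p = 0.0344) was lost in 11 of 24 leave-one-out fits. It was also lost without the low-Malat1 pair (-0.28, edgeR adjusted p = 0.0506). The 5 astrocyte markers summed to 760 to 843 CPM in 5xFAD, against 643 to 777 CPM in WT of the Ripk1 cohort, and their part in the result was not tested.

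Grm2, the neuronal group II receptor, was called in neither cohort alone. It was at 49.8, 41 and 52.9 CPM in 5xFAD, against 70.5, 64.4 and 61.4 CPM in WT of the Zbp1 cohort, with no overlap (-0.45 ± 0.12, edgeR adjusted p = 0.0747). In the Ripk1 cohort it was at 54.3, 54.2 and 42.7 CPM in 5xFAD, against 55.9, 50.1 and 63.5 CPM in WT, and the groups overlapped (-0.17 ± 0.14). The average of -0.21 ± 0.07 (edgeR, adjusted p = 0.0346) lost its call in 10 of 24 leave-one-out fits. It also lost the call without the low-Malat1 pair (-0.19, edgeR adjusted p = 0.0595).

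Grm5, the postsynaptic group I receptor that releases calcium from internal stores and has been studied as a partner of amyloid oligomers, was at 283, 235 and 312 CPM in 5xFAD, against 420, 396 and 361 CPM in WT of the Ripk1 cohort. All 6 leave-one-out fits kept its call there (-0.50 ± 0.11, edgeR adjusted p = 0.00785). Libraries of the Zbp1 cohort had it at 301, 265 and 355 CPM in 5xFAD, against 343, 321 and 344 CPM in WT, with 5xFAD 3 above all WT libraries (-0.13 ± 0.10). The average was -0.23 ± 0.05 (edgeR, adjusted p = 0.004). The difference between cohorts had an unadjusted p of 0.0203 and an edgeR adjusted p of 0.46.

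**Figure D3:**
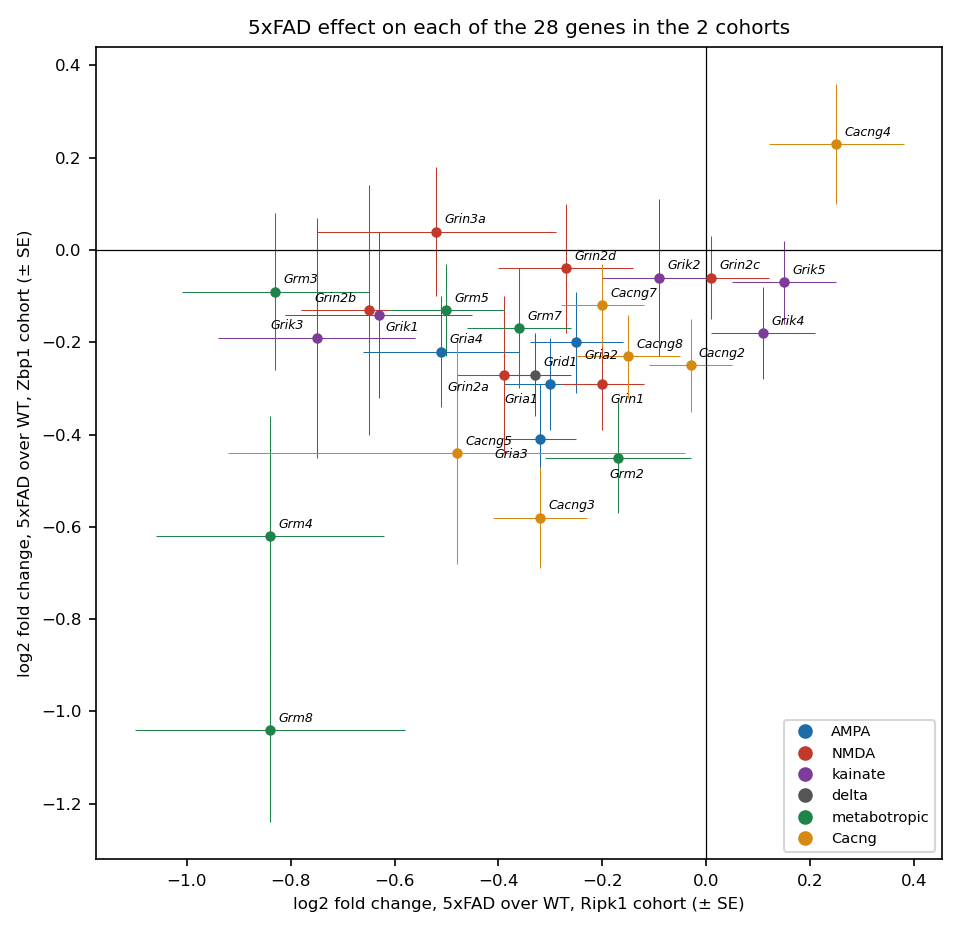
Log2 fold change of each of the 28 genes in 5xFAD over WT in the Ripk1 cohort (horizontal axis) and the Zbp1 cohort (vertical axis), with bars of 1 SE and colors by receptor family. Grm8 and Grm4 lie farthest to the lower left, Grm3, Grik3, Grin2b and Grik1 lie low on the horizontal axis with values between -0.19 and -0.09 on the vertical one, and Cacng4 is alone above 0 on both axes.

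The auxiliary subunit genes did not share 1 direction. Cacng3 was lower in carriers, Cacng2 and Cacng7 had small lower averages (which became 0.02 and 0.04 with neuron-marker scaling), and Cacng4 had higher estimates. Cacng3 was at 45.6, 48.2 and 47.5 CPM in 5xFAD, against 59.5, 56.4 and 60.1 CPM in WT of the Ripk1 cohort. In the other cohort it was at 39.6, 45.3 and 36.2 CPM in 5xFAD, against 62.1, 57.1 and 62.3 CPM in WT. On the KO background it was at 46, 44.4 and 37.5 CPM in KO 5xFAD, against 60.6, 57 and 58.2 CPM in KO. Carriers lay below non-carriers with a gap in these 3 pairs. On the D138N background the groups overlapped, with 50.9, 50.8 and 54.8 CPM in D138N 5xFAD, against 52.4, 50.5 and 66.1 CPM in D138N.

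Cacng3 had the smallest adjusted p of the 28 genes in the average, at 1.08e-05 (edgeR), with a log2 fold change of -0.37 ± 0.05. It kept the call in all 24 leave-one-out fits and with neuron-marker scaling (-0.17, adjusted p = 0.0157). Within the Zbp1 cohort it was -0.58 ± 0.11 (edgeR, adjusted p = 0.00725), called in all 6 leave-one-out fits and lost with neuron-marker scaling (-0.33, adjusted p = 0.13). Within the Ripk1 cohort it was -0.32 ± 0.09 (edgeR, adjusted p = 0.0348), and each of the 6 leave-one-out fits lost the call. In KO 5xFAD over KO it was -0.46 ± 0.11 and just missed (edgeR, adjusted p = 0.0684; DESeq2 0.00687).

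Cacng8, the auxiliary subunit characteristic of the hippocampus, was at 115, 109 and 120 CPM in 5xFAD, against 121, 134 and 125 CPM in WT of the Ripk1 cohort. The Zbp1 cohort had it at 129, 125 and 140 CPM in 5xFAD, against 174, 143 and 148 CPM in WT. The groups did not overlap in either cohort, but the differences were small and not called (-0.15 ± 0.10 and -0.23 ± 0.09; edgeR adjusted p = 0.392 and 0.264). As a description, reads of Cacng3 per read of Cacng8 were 0.309 ± 0.0515 in 5xFAD, against 0.392 ± 0.0332 in WT of the Zbp1 cohort (SD, n = 3 each), where the ranges overlapped. On the KO background that ratio was 0.29 ± 0.0346 in KO 5xFAD, against 0.392 ± 0.0184 in KO, with no overlap. In the Ripk1 cohort it was 0.412 ± 0.0267 in 5xFAD, against 0.465 ± 0.0383 in WT, and overlapped.

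Cacng2 (stargazin), the founding member of this family, ranged from 78.3 to 86.1 CPM in 5xFAD and from 80.3 to 85.7 CPM in WT of the Ripk1 cohort. Its Zbp1-cohort values were 69.6, 63.1 and 71.6 CPM in 5xFAD, against 76, 74.7 and 91.9 CPM in WT, with no overlap. The average was -0.17 ± 0.04 (edgeR, adjusted p = 0.00763), or 0.02 with neuron-marker scaling. Cacng7 was at 103, 118 and 111 CPM in 5xFAD, against 127, 122 and 133 CPM in WT of the Ripk1 cohort, and at 121, 135 and 110 CPM in 5xFAD, against 124, 130 and 143 CPM in WT of the Zbp1 cohort. Only the first of these pairs was free of overlap, and the average was -0.15 ± 0.04 (edgeR, adjusted p = 0.0139), or 0.04 with neuron-marker scaling.

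Cacng4 was at 36.8, 30.5 and 31.8 CPM in 5xFAD, against 27.9, 28.8 and 26.7 CPM in WT of the Ripk1 cohort. Libraries of the Zbp1 cohort had it at 31.7, 26.2 and 25.7 CPM in 5xFAD, against 22.7, 24.6 and 24 CPM in WT. Every 5xFAD library thus lay above every WT library of its cohort, with no call in either (0.25 ± 0.13 and 0.23 ± 0.13; edgeR adjusted p = 0.238 and 0.581). The averaged estimate of 0.16 ± 0.07 was not called (edgeR, adjusted p = 0.112) with TMM and was called higher with neuron-marker scaling (0.35, adjusted p = 7.97e-04). Cacng5 was the least settled gene of the 28, with 6.37, 10.6 and 14.9 CPM in 5xFAD, against 9.41, 25.7 and 9.56 CPM in WT of the Ripk1 cohort, and an averaged SE of 0.19.

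**Figure D4:**
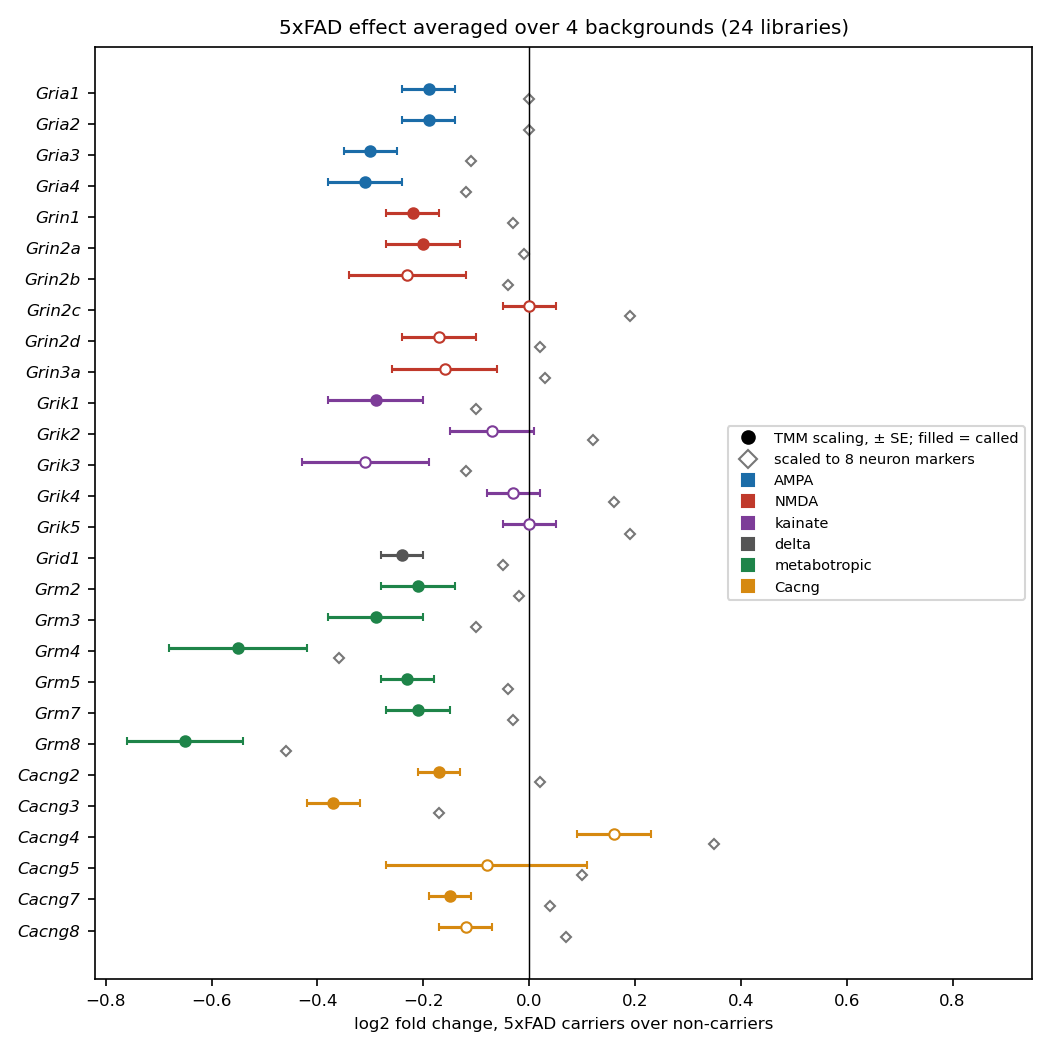
Log2 fold change of 5xFAD carriers over non-carriers averaged over 4 backgrounds for each of the 28 genes, with bars of 1 SE; filled circles were called by edgeR with TMM scaling and grey diamonds show the estimate when libraries were scaled to 8 neuron markers. The circles of 26 genes lie below 0, from -0.65 (Grm8) upward, and the diamonds lie about 0.19 to the right, with Grm8, Grm4 and Cacng3 still lowest.

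The 2 cohorts were compared gene by gene, since each has its own 5xFAD and WT libraries. Of the 28 genes, 23 had estimates below 0 in both, beside 30.6% of 20680 genes tested in both. In 6 genes (Gria1, Gria3, Grid1, Grm8, Cacng3 and Cacng8) every 5xFAD library lay below every WT library in both cohorts, beside 2.28% of genes. The 2 called lower in both, Grm8 and Cacng3, compare with 0.058% of genes. Across the 28 genes the effects of the cohorts correlated with a Pearson r of 0.45 and a Spearman rho of 0.28, and across all 20680 genes with 0.51 and 0.34; genes are not independent replicates, and these values are descriptions. No gene of the 28 was called in the test of a difference between cohorts (edgeR; 2 at an unadjusted p under 0.05, Grm3 and Grm5; DESeq2 0). Over the 4 carrier against non-carrier pairs, 19 of 28 genes had estimates below 0 in every pair, beside 16.1% of genes. Gria3, Grid1, Grm8 and Cacng3 lay lower without overlap in at least 3 of the 4 pairs, beside 2.2% of genes.

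No glutamate receptor gene passed the threshold of the main fits between mutant 5xFAD mice and the 5xFAD mice of their cohort. In D138N 5xFAD over 5xFAD, none of the 28 genes was called by edgeR (6 at an unadjusted p under 0.05, DESeq2 0), beside 0.342% of genes lower and 0.0234% higher. The 6 were Grin2a, Grin2b, Grik3, Grm3, Grm4 and Grm8, with estimates of 0.20 ± 0.09, 0.39 ± 0.13, 0.42 ± 0.19, 0.57 ± 0.18, 0.49 ± 0.22 and 0.59 ± 0.26. The 28 estimates had a median of 0.12, beside -0.01 for all genes, and 6 lay below 0, beside 51.4% of all genes. Libraries did not overlap in 5 genes that were higher (Grin2a, Grin2b, Grm4, Grm8 and Cacng3), beside 7.4% of all genes, and in no gene that was lower, beside 7.73%. Without the low-count filter edgeR called Grin2b (0.40, adjusted p = 0.0175) and Grm3 (0.58, adjusted p = 0.009) higher. Over all genes that fit called 195 higher and 192 lower. Grin2b was at 934, 769 and 867 CPM in D138N 5xFAD, against 604, 598 and 757 CPM in 5xFAD, with no overlap. Grm3 was at 54, 32.8 and 50 CPM in D138N 5xFAD, against 32.2, 26.4 and 33.4 CPM in 5xFAD. D138N 5xFAD 2 was the lowest library of its group in both genes and in Gria4, Grik3 and Grin3a. Its neocortex and subiculum markers summed to 128 CPM, where both other libraries of that group had 219 CPM, and their part in the result was not tested. Without that library edgeR called Grm3 higher (0.76, adjusted p = 0.0251) and Grik4 lower (-0.37, adjusted p = 0.0365), beside 348 higher and 325 lower of all genes. These estimates use the same 5xFAD libraries as 5xFAD over WT, so a low value in those libraries enters both with opposite signs.

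In KO 5xFAD over 5xFAD none of the 28 genes was called by edgeR (5 at an unadjusted p under 0.05, DESeq2 0), as was none of the 21274 genes tested (0% in each direction). The 5 were Gria1, Gria2, Gria3, Grin2a and Grm5, with estimates of 0.30 ± 0.10, 0.29 ± 0.11, 0.30 ± 0.12, 0.39 ± 0.17 and 0.32 ± 0.10. The median was 0.15, beside -0.01 for all genes, and 5 of 28 estimates lay below 0, beside 51.6% of all genes. Libraries did not overlap in 10 genes that were higher, beside 6.4% of all genes, and in Grin2c, which was lower, beside 7.89%. Without the low-count filter edgeR called Grin2a (0.38, adjusted p = 0.0498) and Grin2b (0.55, adjusted p = 3.23e-04) higher. Over all genes that fit called 61 higher and 437 lower. Gria1 was at 1300, 1210 and 1340 CPM in KO 5xFAD, against 1040, 941 and 1130 CPM in 5xFAD, with no overlap. Gria2 was at 1280, 1190 and 1230 CPM in KO 5xFAD, against 1080, 855 and 1100 CPM in 5xFAD, again with no overlap. In both genes 5xFAD 2, with low Malat1, was the lowest library. As in the other cohort, these 5xFAD libraries are shared with 5xFAD over WT.

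Without 5xFAD, neither mutation had a called gene among the 28. D138N over WT had no call by edgeR (0 at an unadjusted p under 0.05, DESeq2 0), a median of 0 and a median SE of 0.11, beside 0% of genes called in either direction. Grik1 alone was lower without overlap, beside 4.12% of genes, and none was higher without it, beside 3.58%. KO over WT had no call by edgeR (2 at an unadjusted p under 0.05, Gria4 at 0.28 ± 0.12 and Grm5 at 0.24 ± 0.10; DESeq2 0), a median of 0.05 and a median SE of 0.12, beside 0% of genes called. Libraries did not overlap in 3 genes that were higher (Gria4, Grin2d and Grm5), beside 6.21% of genes, and in Grik4, which was lower, beside 5.57%. With 3 libraries per genotype, differences of the size of those SEs were not detectable.

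The 5xFAD effect was also taken on each mutant background. D138N 5xFAD over D138N had 1 gene lower, Gria3, beside 0.257% of genes lower and 3.12% higher, and 25 of 28 estimates lay below 0, beside 51% of genes. Libraries did not overlap in 5 genes that were lower (Gria2, Gria3, Grin2d, Grik2 and Grid1), beside 7.87% of genes. KO 5xFAD over KO had no gene called by edgeR (6 at an unadjusted p under 0.05, DESeq2 2), beside 0.0423% of genes lower and 1.18% higher, and 23 of 28 estimates lay below 0, beside 50.6% of genes. Libraries did not overlap in 9 genes that were lower (Gria4, Grin1, Grid1, Grm4, Grm7, Grm8, Cacng2, Cacng3 and Cacng7), beside 10.6% of genes. Whether the effect differs between backgrounds was tested by the interaction, which called no gene of the 28 in either cohort (edgeR; 4 at an unadjusted p under 0.05 for D138N, namely Grik3, Grm3, Grm4 and Grm8, and 1 for KO, Gria1; DESeq2 0 and 0). By the same rule 0.0281% of genes were lower and 0% higher for D138N, and 0% either way for KO. The smaller number of calls on the mutant backgrounds is therefore not a shown difference.

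Some lists of neuronal and regional markers moved with these genes, and others did not. The summed CPM of 8 pan-neuronal markers ran from 5690 to 6180 in 5xFAD, against 6830 to 7040 in WT of the Ripk1 cohort, and from 5470 to 6010 in 5xFAD, against 6730 to 6870 in WT of the Zbp1 cohort. In the average 4 of these 8 were called lower and none higher. The 4 pyramidal and granule neuron markers summed to 4340 to 4730 in 5xFAD, against 4800 to 5940 in WT of the Ripk1 cohort. Taken singly, 2 of them had estimates below 0 there and 2 above, and none was called. Their sum ran from 4860 to 5340 in 5xFAD, against 5570 to 6010 in WT of the Zbp1 cohort. There all 4 estimates lay below 0 and none was called. The 8 interneuron markers ran from 470 to 538 in 5xFAD, against 592 to 698 in WT of the Zbp1 cohort, with 6 of 8 lower in the average. The 4 CA1 markers ran from 359 to 486 in 5xFAD, against 513 to 554 in WT of the Ripk1 cohort, and overlapped in the Zbp1 cohort at 346 to 628 in 5xFAD, against 513 to 593 in WT. The 6 markers of neocortex and subiculum, tissue that borders the hippocampus in dissection, ran from 131 to 159 in 5xFAD, against 223 to 240 in WT of the Ripk1 cohort, and from 154 to 172 in 5xFAD, against 172 to 226 in WT of the Zbp1 cohort. The sum of 4 CA3 markers overlapped in the Ripk1 cohort (967 to 1150 in 5xFAD, 962 to 1200 in WT). It lay lower in 5xFAD of the Zbp1 cohort (1030 to 1140, against 1150 to 1280). Of the 4 estimates there, 2 lay below 0 and 2 above, and none was called. Dentate gyrus and striatum markers overlapped between 5xFAD and WT in both cohorts. Thalamus and habenula markers overlapped in the Ripk1 cohort and lay higher in 5xFAD of the Zbp1 cohort (69.6 to 76.8, against 57.8 to 68.1). The 6 microglial markers were all higher in the average, from 920 to 960 summed CPM in 5xFAD, against 245 to 341 in WT of the Ripk1 cohort, and from 785 to 1350 in 5xFAD, against 302 to 371 in WT of the Zbp1 cohort. The 4 oligodendrocyte markers were also higher in the average, and of 5 astrocyte markers 3 were higher and 1 lower. Choroid plexus markers, from a tissue that can adhere in dissection, ranged from 47.4 to 4650 summed CPM among the 5xFAD libraries of the Zbp1 cohort alone, and none of the 4 was called in the average. No marker list had a gene at 0 in any library. The part of these marker shifts in the receptor results was not tested.

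**Figure D5:**
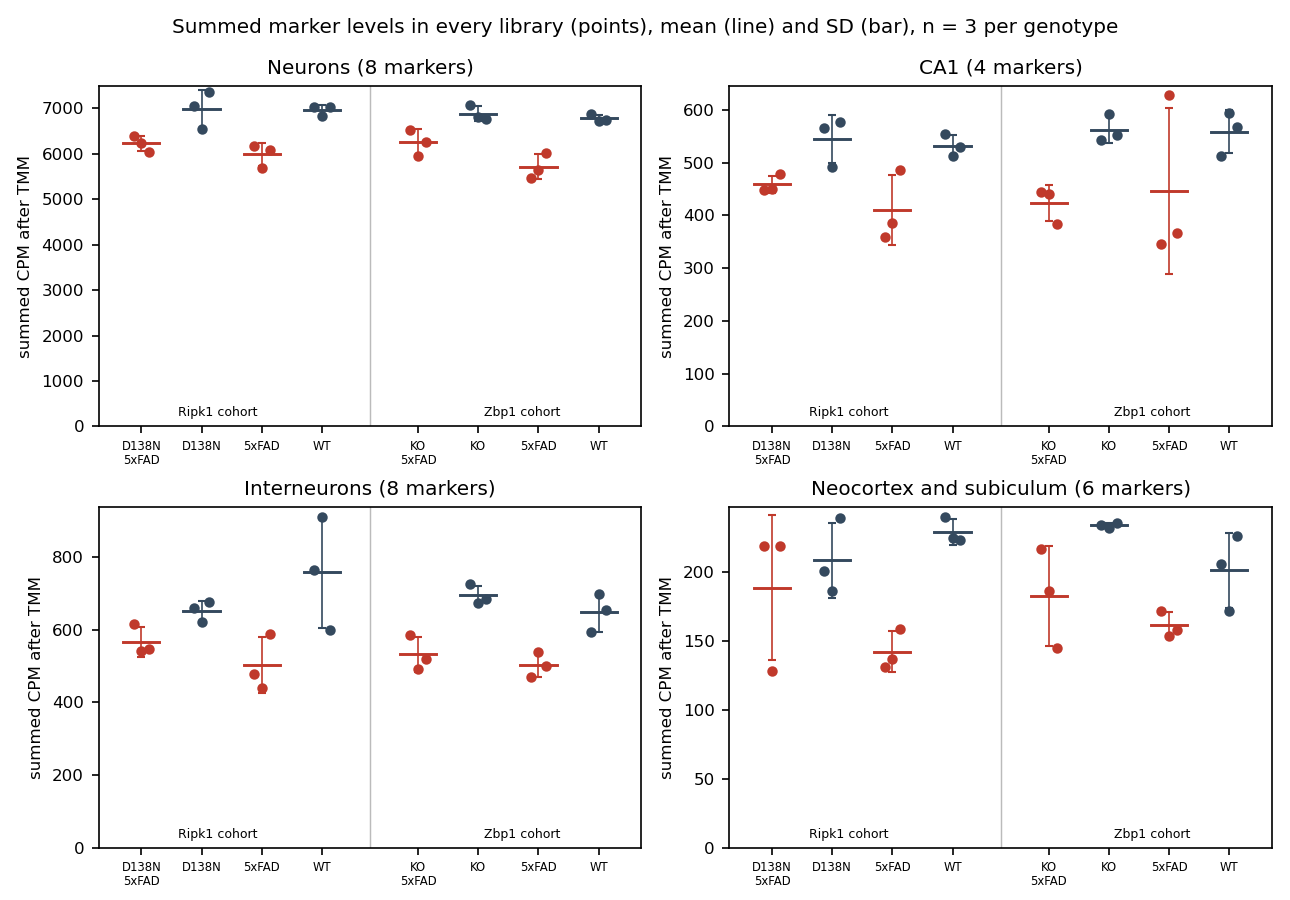
Summed CPM after TMM of 4 marker lists (neurons, CA1, interneurons, neocortex with subiculum) in every library, with the mean and SD of 3 libraries per genotype; 5xFAD carriers are red, non-carriers dark blue, and every axis starts at 0. Neuron markers lie between 5470 and 6530 in carriers, all below the 6540 to 7350 of non-carriers.

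Other genes of the glutamate synapse, 35 in all, were followed as a wider list. In the average over backgrounds 15 of 35 were lower and 2 higher, beside 7.53% of all genes lower and 8.73% higher. By role these were 3 lower and 1 higher of 8 genes for glutamate transport and metabolism, 4 lower of 13 for other auxiliary and clustering proteins, and 8 lower and 1 higher of 14 postsynaptic anchors. In 5xFAD over WT 13 of 35 were lower and none higher in the Ripk1 cohort, beside 8.02% of all genes lower and 8.11% higher. In the Zbp1 cohort 1 was lower and 1 higher, beside 0.127% lower and 3% higher. The 6 called with the smallest adjusted p in the average (edgeR) are these. Dlg2, which encodes the anchor PSD-93, was at -0.30 ± 0.05 (adjusted p = 1.03e-04). Slc17a6, which encodes VGLUT2 and loads glutamate into synaptic vesicles, was at -1.07 ± 0.19 (adjusted p = 1.82e-04). Nsf, the ATPase that also binds AMPA receptors, was at -0.21 ± 0.04 (adjusted p = 5.44e-04), and the scaffold Shank2 at -0.28 ± 0.06 (adjusted p = 0.00116). Slc1a3, the astrocytic glutamate transporter GLAST, was higher at 0.20 ± 0.04 (adjusted p = 0.00143). Frrs1l, which helps assemble AMPA receptors, was at -0.24 ± 0.05 (adjusted p = 0.00148).

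With ratios scaled by library totals, RNA bound to ZBP1 held none of the 28 genes at 2-fold or more over input. Each genotype had 1 IP and 1 input library, so there is no replicate check and no test. In 5xFAD 2 genes lay lower by at least 2-fold in IP over input, Gria4 with 22 counts in IP against 68 in input and Grik4 with 20 counts in IP against 72 in input, and none was higher, beside 15.9% of 23012 genes lower and 1.65% higher. The log2 ratios were -1.16 (95% interval -1.92 to -0.44) for Gria4 and -1.38 (-2.17 to -0.64) for Grik4; intervals cover counting error only. With TMM in place of library totals, 0 genes passed 2-fold in 5xFAD and 1 did in WT. The median of the 28 genes was -0.19, beside -0.40 for all genes. In WT none of the 28 passed 2-fold in either direction, beside 8.34% of 22561 genes lower and 2.67% higher, and the median was -0.22, beside -0.17. Grm8 had the highest WT ratio, with 44 counts in IP against 37 in input (0.88, 0.22 to 1.56), and in 5xFAD it had 30 counts in IP against 50 in input (-0.26, -0.97 to 0.42). Entries for repeat families took 91 to 92.4% of counts in these libraries, which leaves 8 to 218 counts per receptor gene.

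In the authors' deposited table of 5xFAD over WT for the Ripk1 cohort, 14 of the 28 genes had an adjusted p under 0.05, all with negative log2 fold changes. In the authors' deposited table for the Zbp1 cohort, 4 had, all negative, namely Gria3 at -0.41, Grm2 at -0.44, Grm8 at -1.04 and Cacng3 at -0.58. In the authors' deposited tables of 5xFAD over D138N 5xFAD and of 5xFAD over KO 5xFAD, which run in the opposite direction to the contrasts above, none of the 28 had. The authors' own call in these deposited tables marked Grm8 in the Zbp1 cohort as down. It marked no other of the 28 genes in any of the comparisons. The share of all genes with an adjusted p under 0.05 in these deposited tables is not given here.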

How the data were processed

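Hippocampal RNA was measured in 24 libraries of 2 cohorts, 3 per genotype, and 4 RIP libraries. The authors deposited counts per Ensembl gene ID for each cohort and per gene symbol or repeat family for RIP, per the file headers. Tables of the authors' comparisons hold log2 fold changes and p-values, as deposited and per the file headers. Per the submitters' processing notes, the builds mm10 (GRCm38) and mm39 (GRCm39), HISAT2, edgeR 4.0.16 and DESeq2 1.42.1 were named without roles. Strand use and counting options: not given in the sources used here. Reads of overlapping genes or close paralogs could therefore have been split.

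Each cohort's 12 libraries were fitted in edgeR 4.0.16 (R 4.3.3, limma 3.58.1; TMM, filterByExpr by genotype, quasi-likelihood), leaving 21376 and 21274 genes, with 1 mean per genotype. All 24 libraries were fitted on 22565 genes for the average and the difference between cohorts. Genes were called at a Benjamini-Hochberg adjusted p under 0.05 over all genes tested. SE is the log2 fold change divided by the square root of F. The step was tested on simulated data. Replicates differed by more than counting noise, with chi-square divided by its degrees of freedom between 7.76 and 87.5. RIP ratios used library totals and at least 10 counts in IP and input together. Alternatives were DESeq2 1.42.0, relative log expression factors, no filter, neuron-marker scaling, a replicate block, leaving out each library, and leaving out 2 low-Malat1 libraries. Values per library are given for genes called in a 5xFAD contrast or free of overlap in both cohorts. The 28 genes and the lists were chosen with earlier results of these data known. Promoter sequences are not reported here.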

Additional observations from a re-analysis of the deposited data

How the results depend on the processing

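Of the 28 genes, the average over 4 backgrounds called 17, and 16 to 19 with DESeq2, relative log expression factors, no filter or the replicate block, but 7 (3 lower, 4 higher) with neuron-marker scaling. Over all genes that scaling called 161 lower and 7251 higher, against 1699 and 1969 in the main fit. There Gria1 was 0, Gria2 0, Cacng2 0.02, Cacng7 0.04, Grik4 0.16 and Grik5 0.19, against a shift of 0.19 in the median of all genes. 5xFAD over WT in the Ripk1 cohort (14) gave 12 to 16 under the same settings. It gave 8 (5 lower, 3 higher) with neuron-marker scaling, beside 440 lower and 4872 higher of all genes (median of all genes 0.24, against 0.02). In the Zbp1 cohort (2) it gave 4 with no filter, 4 with the replicate block, 4 without the low-Malat1 pair 5xFAD 2 and WT 2, and 1 with neuron-marker scaling. Over all genes the number lower was 80, 54, 257 and 4 in these fits, against 27 in the main fit. D138N 5xFAD over D138N (1) gave 2 with DESeq2 and 0 with neuron-marker scaling, beside 279 and 2 genes lower over all genes. KO 5xFAD over KO (0) gave 2 with DESeq2, 2 with no filter and 2 without the low-Malat1 pair, beside 57, 73 and 142 genes lower over all genes. With no filter, D138N 5xFAD over 5xFAD (0) and KO 5xFAD over 5xFAD (0) gave 2 each and the difference between cohorts (0) gave 1. Over all genes these fits called 195, 61 and 68 higher and 192, 437 and 120 lower. Leaving out 1 library at a time gave 13 to 18 for the average, 4 to 13 for the Ripk1 cohort, 2 to 4 for the Zbp1 cohort (4 without WT 2), 0 to 1 for D138N 5xFAD over D138N, 0 to 2 for D138N 5xFAD over 5xFAD (2 without D138N 5xFAD 2) and 0 for the others. Over all genes the number lower in these fits ran from 1221 to 1998 for the average, 702 to 1630 for the Ripk1 cohort and 6 to 332 for the Zbp1 cohort. For RIP in 5xFAD, 2 genes past 2-fold became 1 with library sizes over gene symbols and 0 with TMM; in WT 0 became 1 with TMM. The causes were not tested. Over single genes, 4894 values kept their side of the threshold or, for RIP, stayed within the counting interval, and 1 RIP ratio left it. A call was lost by 115 values and gained by 44 with the sign kept. A further 6 values, called in 1 fit only, changed sign. Sign was not compared for genes called in neither fit, and some of those changed sign as well.

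The labels do not say what a shared replicate number marks, and the main fits used no pairing. Deviations were correlated over 0.1 in 7 of 18 same-number pairs of Ripk1-cohort libraries (-0.36 to 0.39). In the Zbp1 cohort they were so in 9 of 18 pairs (-0.18 to 0.56), with the highest value between WT 2 and 5xFAD 2. With the replicate block the calls were 18 in the average, 12 for Ripk1 and 4 for Zbp1, all lower, beside 1942, 1852 and 54 of all genes lower. It lost, for Ripk1, Gria1 (edgeR, adjusted p = 0.0543) and Grm8 (0.0603), for Zbp1 it added Gria3 (0.0121) and Grm2 (0.0487), and in the average it added Grik3 (0.0244), so that Gria3 and Cacng3 were the 2 genes called in both cohorts. With 3 libraries per genotype and a median SE of 0.11 to 0.12, small differences between mutants were not detectable, and the 8.4 M counts of WT 1 limit the Zbp1 cohort.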
